A study of Mus musculus with 12 samples.

Results

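The 10 genes described here encode heat shock proteins and chaperones: Hsp90aa1, Hsp90ab1, Hspa8, Hspa5, Hspa9, Hspb1, Hsph1, Hspd1, Hspe1 and Dnajb1. They were taken by symbol from the 53819 gene symbols of the count table, and all 10 were among the 13852 genes with enough counts to be tested. The libraries came from E14 mouse embryonic stem cells, an established pluripotent line, grown in 2 dimensions. There were 4 groups of 3 libraries: untreated control cells, cells given proline for 72 hours, cells given budesonide for 72 hours, and cells that received both compounds for 72 hours (the combined group). Budesonide is a synthetic glucocorticoid, and added proline is known to move mouse embryonic stem cells away from the naive pluripotent state. The series asks how budesonide changes transcription in these cells, and the combined group allows the same question in the presence of proline. The labels give no dose, and for the control cells they name no vehicle and give no culture time. They also do not say whether the 3 libraries of a group came from separate cultures. P-values here therefore reflect library-to-library spread, part or all of which may be technical.

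Chaperones bind unfolded or partly folded proteins and help them fold, assemble, cross membranes or avoid clumping. In the cytosol, proteins of the Hsp70 family (Hspa8) work with J-domain partners (Dnajb1) and nucleotide exchange factors (Hsph1), and pass some clients to Hsp90 (Hsp90aa1, Hsp90ab1), whose best known clients include the glucocorticoid receptor, the target of budesonide. Mitochondria have their own Hsp70 (Hspa9) and a chaperonin barrel with its lid (Hspd1 and Hspe1), the endoplasmic reticulum has BiP (Hspa5), and small heat shock proteins (Hspb1) hold unfolded proteins without using ATP. Many of these genes are switched on by heat shock factors, which bind repeated short units in their promoters, whereas Hspa5 is known for its response to unfolded protein in the endoplasmic reticulum.

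Libraries held 5299432 to 15921283 counts, and levels are given as CPM, a gene's counts relative to the total of its library after TMM scaling. The 10 genes took 1.49% to 1.87% of a library's counts, of which the 2 Hsp90 genes made up 73.3% to 79.0%. The kit yields 1 fragment near the 3' end of each transcript, so counts are not divided by length. The libraries control 3 and budesonide 3 stood apart, with 6.57% and 8.43% of tested genes at 0 against 1.39% to 5.77% elsewhere, and results that rest on them are also given without both. Stem cell markers were expressed in every library: the 8 marker genes of embryonic stem cells summed to 2222 to 3136 CPM. They contributed unequally. Pou5f1, a core pluripotency gene, had group means of only 26.9 (combined) to 30.3 CPM (proline), whereas those of Sox2 were 458 (proline) to 570 CPM (combined). The 8 fibroblast markers summed to at most 22.9 CPM, with Lum and Postn at 0 in all groups, the 8 endoderm markers to at most 26.8 CPM, with Ttr at 0, and the 8 trophoblast markers to at most 116 CPM. In these bulk samples, fewer cells with a transcript and less of the transcript per cell cannot be told apart.

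With proline 2 of the 10 genes fell, Hspb1 and Hsp90aa1, against a background of 4.71% of all tested genes lower and 3.17% higher. With budesonide 4 of the 10 fell, Hspa8, Hspd1, Hspe1 and Hsp90ab1, where 4% of tested genes were lower and 2.51% higher. With budesonide added to proline 3 of the 10 fell, Hspd1, Hspe1 and Hsp90ab1, and 1 rose, Hspb1, against 4.27% lower and 5.83% higher over all genes. In the combined group against control 3 of the 10 were lower, Hspd1, Hspe1 and Hsp90aa1, where 3.83% of tested genes were lower and 3.34% higher. A gene was called when its adjusted p from edgeR's quasi-likelihood test, corrected over all tested genes, was under 0.05. The median log2 change of the 10 genes was -0.09 with proline, -0.24 with budesonide, -0.25 for the combined group against proline and -0.33 for the combined group against control, while the median over all tested genes lay between -0.01 and 0.03 in every comparison. Several of these comparisons share the control or the proline libraries, so they are not independent of each other. The biological coefficient of variation, the spread between libraries in the fit, was 0.0963 to 0.216 for the 10 genes. Its median over tested genes was 0.293. Smaller changes can pass where this spread is low, so the shares over all genes are not a like background.

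Adding proline to budesonide gave no called member among the 10, where 0.874% of tested genes were higher and 0.592% lower. Of the 10, 2 had an unadjusted p under 0.05 there, DESeq2 called 1 and limma-voom called 0. The difference between the effect of proline with budesonide and its effect without (the interaction) was called higher for 1 gene, Hspb1, with 0.411% of tested genes higher and 0.0578% lower. The 10 genes differed in how far their group means spread: the highest mean was 2.30 times the lowest for Hspa8, 1.94 times for Hspb1, 1.53 times for Hspd1 and 1.44 times for Hsp90aa1, and from 1.25 times (Hsph1) to 1.35 times (Dnajb1) for the other 6.

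**Figure D1:**
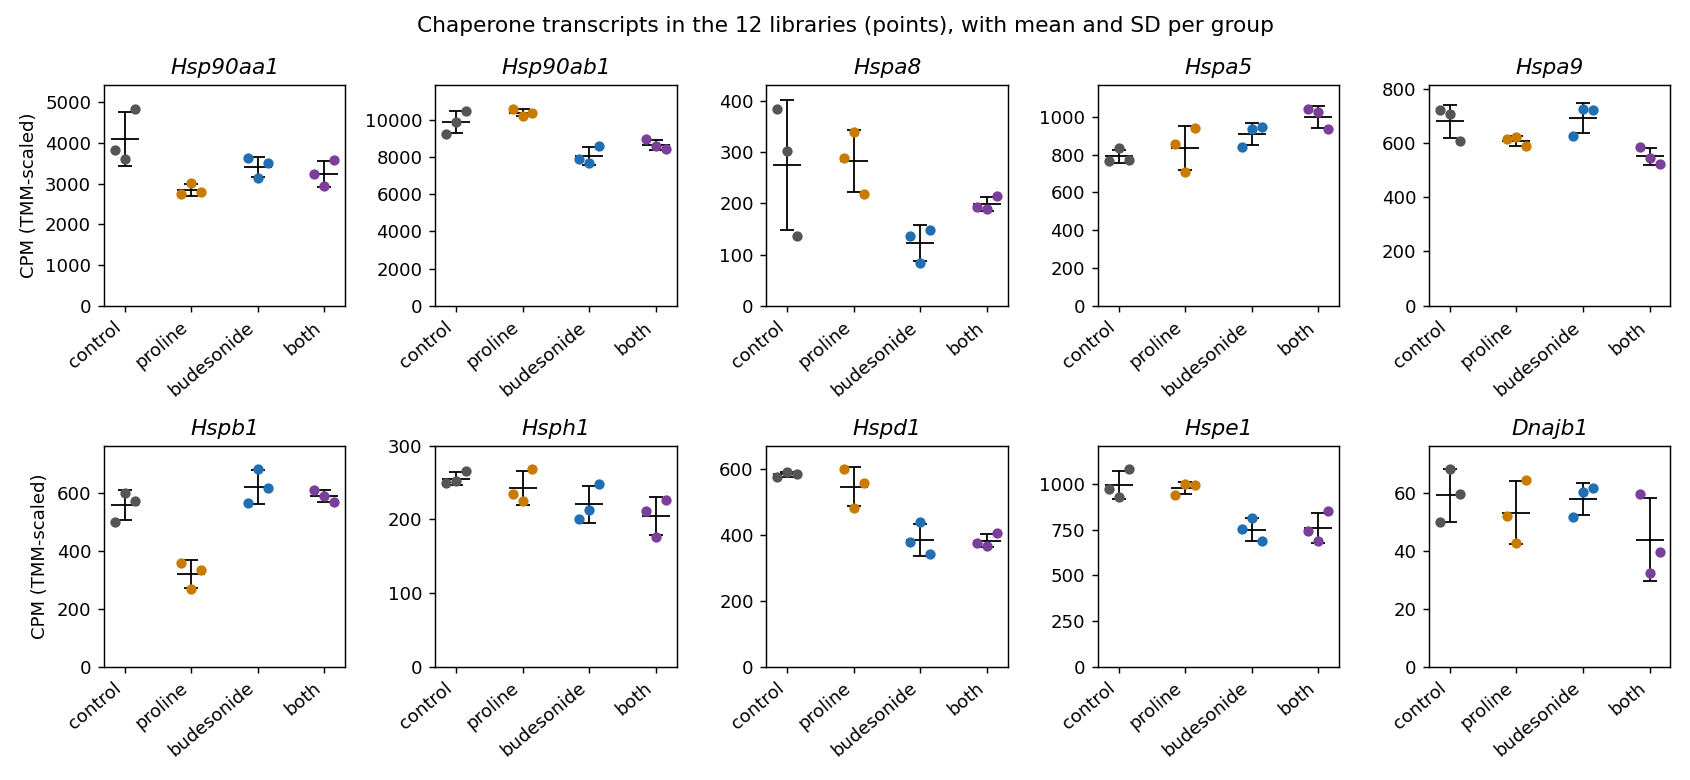
Level of each of the 10 genes in CPM (linear axes that start at 0) in the 12 libraries: points are libraries, and bars give the mean and SD of the 3 libraries of a group. Hspb1 is low in the proline libraries alone, at 267 to 359 CPM, and Hspd1 is low in all 6 libraries that received budesonide, at 342 to 438 CPM.

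**Figure D2:**
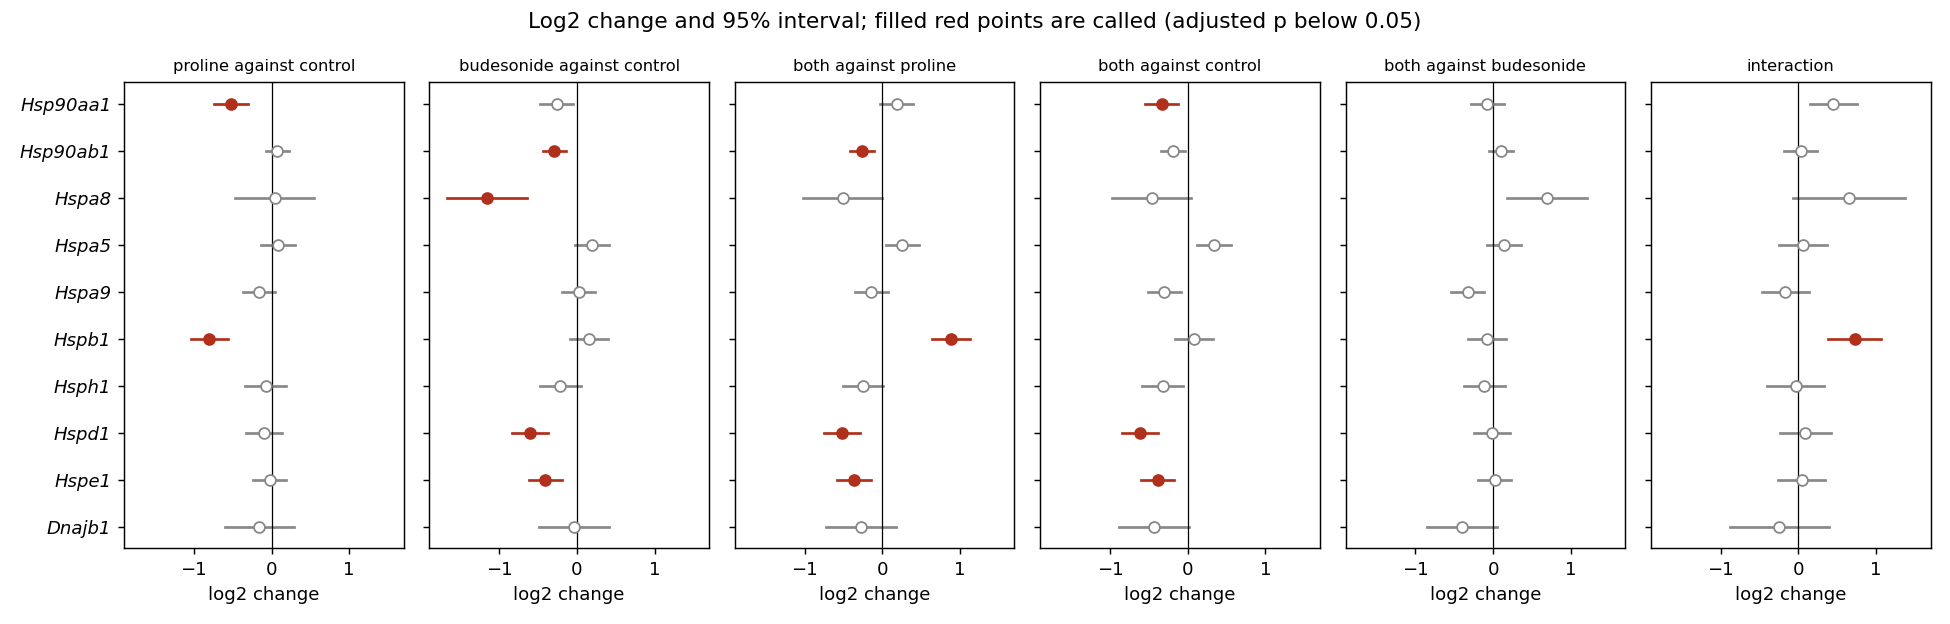
Log2 change of each of the 10 genes in the 6 comparisons, with its pointwise 95% interval from the edgeR fit, filled red where the adjusted p was under 0.05. Hspd1 and Hspe1 lie left of 0 in the 3 comparisons in which 1 side received budesonide and the other did not, and Hspb1 moves in opposite directions with proline (-0.80) and with budesonide added to proline (0.88).

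Hsp90aa1 and Hsp90ab1 encode the 2 cytosolic forms of Hsp90, of which Hsp90aa1 is the more heat-inducible and Hsp90ab1 the constitutive one. Hsp90aa1 fell with proline, from 3825, 3603 and 4843 CPM in control libraries 1, 2 and 3 to 2749.8, 3012 and 2785 CPM. Every proline library lay below every control library, and control 3 was the highest of the 12. The log2 change was -0.52 ± 0.10 (SE, n = 3 and 3, adjusted p = 0.00186), and it was -0.39 with adjusted p = 0.00623 when control 3 and budesonide 3 were left out. The budesonide libraries held 3618, 3141 and 3496 CPM, and the combined libraries 3233, 2934 and 3569 CPM, with group means between those of proline and control. Against control the combined group was called lower at the edge of the threshold (log2 -0.33 ± 0.10, adjusted p = 0.04995). That call ended without control 1 (0.0501), control 3 (0.300), combined library 1 (0.146) or 2 (0.234), and without control 3 and budesonide 3 the change was -0.20. It was lost in 11 of 16 alternatives, among them no scaling beyond the library total (0.0597) and the libraries of the 2 groups alone (0.0951). A correction for transcript length and GC content also ended it (0.156). Budesonide alone gave -0.26 ± 0.10 (adjusted p = 0.147).

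Hsp90ab1 had its lower values in the budesonide groups. Control libraries held 9270.4, 9879 and 10483 CPM and proline libraries 10610.4, 10219 and 10364 CPM, a difference of 0.07 on the log2 scale that did not pass (95% interval -0.08 to 0.22). Budesonide libraries held 7904, 7702 and 8620 CPM, all below the control range, and combined libraries 8975, 8592 and 8459 CPM, all below the proline and control ranges. Hsp90ab1 fell with budesonide (log2 -0.29 ± 0.07, adjusted p = 0.0162) and with budesonide added to proline (-0.26 ± 0.07, adjusted p = 0.0222), while combined against control gave -0.19 (0.133, and 0.0257 by limma-voom). The first call was lost when control 2 (adjusted p = 0.0579), control 3 (0.0609) or budesonide 1 (0.0622) was left out, and held without control 3 and budesonide 3 together (0.0291). It was also lost without scaling beyond the library total (0.0755) and with the libraries of the 2 groups alone (0.0527). The second ended without any 1 of proline 1 (0.0876), proline 3 (0.0557) or combined libraries 1 (0.0522), 2 (0.0747) and 3 (0.0667), and both ended with a correction for transcript length and GC content (0.250 and 0.278).

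Within each library the ratio of the 2 Hsp90 counts does not depend on scaling. Hsp90ab1 counts were 2.44 ± 0.289 times those of Hsp90aa1 in control libraries (mean ± SD, n = 3), 3.66 ± 0.239 times in proline libraries, 2.37 ± 0.158 times in budesonide libraries and 2.69 ± 0.289 times in combined libraries. The proline ratios, 3.39 to 3.86, lay above all others, of which the highest was 2.93. An exact two-sided permutation test gave p = 0.1 for proline against control and for combined against proline, the smallest p that 3 against 3 libraries allow. Over the 20 ratio tests made here the adjusted value was 0.182. Budesonide against control gave an exact p of 1.

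**Figure D3:**
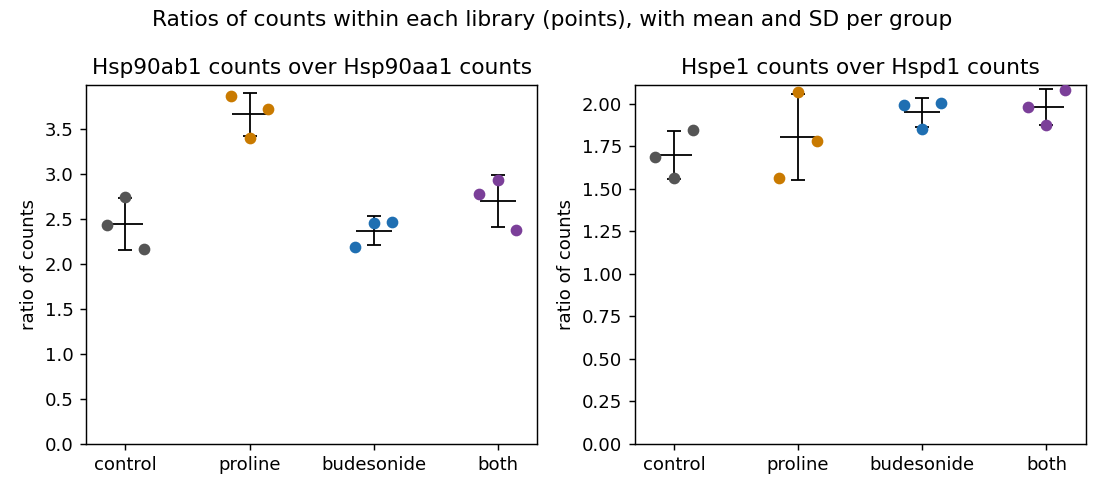
Ratios of counts within each library for the 2 Hsp90 genes (left) and for the mitochondrial chaperonin lid over its barrel (right), on linear axes that start at 0. Points are libraries and bars the mean and SD of 3. The Hsp90ab1 to Hsp90aa1 ratio is 3.39 to 3.86 in proline libraries and 2.16 to 2.93 in the other 9.

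Hspa8, the constitutive cytosolic Hsp70, fell with budesonide but varied widely among the untreated libraries. Control libraries held 385, 302 and 137 CPM, proline libraries 288, 340 and 219 CPM, budesonide libraries 137, 83.2 and 148 CPM, and combined libraries 193, 189 and 214 CPM. The control and budesonide ranges overlap through control 3, whereas the 3 combined libraries lay above the budesonide libraries and below the proline ones. The log2 change with budesonide was -1.16 ± 0.25 (adjusted p = 0.00576), the largest of any of the 10 genes in any of the 6 comparisons, and it was -1.64 (adjusted p = 3.26e-05) without control 3 and budesonide 3. The other differences were not called: combined against proline -0.51 (adjusted p = 0.218), combined against control -0.47 (0.307) and combined against budesonide 0.69 (0.194). Without the filter on low counts all 3 were called (0.00513, 0.0173 and 0.000188), and the first was also called with the 6 libraries of its 2 groups alone (0.0171). Without control 3 and budesonide 3 the last became 0.84 (adjusted p = 0.0129), combined against control became -0.80 (0.00411) and the interaction moved from 0.65 (0.631) to 1.13 (0.0249).

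The partners of Hspa8 among the members, Hsph1 and Dnajb1, did not pass in any comparison. Hsph1, which helps Hsp70 release its nucleotide, had a mean of 255 ± 8.80 CPM in control libraries, 242 ± 22.7 in proline libraries, 221 ± 25.0 in budesonide libraries and 204 ± 25.9 in combined libraries (SD, n = 3). Its combined libraries, at 175 to 226 CPM, lay below the control range of 248.7 to 265 CPM, with a log2 change of -0.32 (adjusted p = 0.136). Dnajb1, a heat-inducible J-domain protein, had 59.2 ± 9.16 CPM in control libraries, 53.1 ± 10.9 in proline, 57.8 ± 5.37 in budesonide and 43.8 ± 14.2 in combined libraries, with overlapping ranges in all comparisons. The genes for the strongly heat-inducible Hsp70 proteins were low in all 12 libraries, with Hspa1a at 0.296 to 4.61 CPM and Hspa1b at 1.71 to 15.8 CPM. Hsf1, the main heat shock factor, was at 11.3 to 34.0 CPM.

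Hspd1 and Hspe1, the barrel and the lid of the mitochondrial chaperonin (Hsp60 and Hsp10), are neighbouring genes read in opposite directions, and both were lower in the budesonide groups. Because the pair moved together, the stretch between them is shown first. The RefSeq promoter of Hspe1 (chr1:55087898-55088197, GRCm38.p6, plus strand, from 250 bases before to 50 after the start) and 1 of the 2 RefSeq promoters of Hspd1 (chr1:55087883-55088182, minus strand) share 285 bases, with start sites 216 bases apart. Capitals mark 3 overlapping pairs of heat shock units (GAANNTTC or TTCNNGAA, searched on both strands), which begin 89, 84 and 79 bases before the Hspe1 start.
Hspe1 promoter: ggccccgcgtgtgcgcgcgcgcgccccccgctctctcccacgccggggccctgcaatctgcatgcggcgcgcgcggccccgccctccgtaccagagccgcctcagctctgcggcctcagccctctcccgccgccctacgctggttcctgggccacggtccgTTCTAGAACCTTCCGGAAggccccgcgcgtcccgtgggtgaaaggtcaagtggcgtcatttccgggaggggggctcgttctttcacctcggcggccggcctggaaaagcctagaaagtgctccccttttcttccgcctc
A pair of units occurs in 15.1% of the 32851 RefSeq promoters of this length, and at least 3 units in a row in 0.603%. The run here is longer than 3 units, as 2 overlapping runs of 3 begin 89 and 84 bases before the Hspe1 start. The share of promoters with so long a run was not determined. The other Hspd1 promoter (chr1:55088194-55088493) holds no such pair. These letters describe the sequence and do not show that a factor was bound.

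Hspd1 was 576, 592 and 585 CPM in control libraries and 599, 483 and 559 CPM in proline libraries. It was 377, 438 and 342 CPM in budesonide libraries and 375, 367 and 407 CPM in combined libraries. All 6 libraries with budesonide lay below all 6 without it. Hspd1 fell with budesonide by 0.60 ± 0.11 on the log2 scale (adjusted p = 0.00180), and its change was -0.51 ± 0.11 for combined against proline (0.00379) and -0.61 ± 0.11 for combined against control (0.00132). These 3 calls held under every alternative setting tried. The summed trophoblast markers were also higher in both budesonide groups, at 90.5 ± 13.6 and 104 ± 12.03 CPM against 59.1 ± 6.02 in control and 49.0 ± 7.85 in proline libraries. Tfap2c made up most of each sum, at means of 40.6 CPM in control, 30.2 in proline, 59.9 in budesonide and 78.4 in combined libraries. With budesonide 0 of the 7 tested were called, with 4 changes positive and 3 negative. For combined against proline and against control 1 was called higher, Tfap2c, where 5.83% and 3.34% of all tested genes were. Elf5 was at 0 in all treated groups and at 0.0642 CPM in mean in control. The summed fibroblast markers had lower means, at 8.19 ± 3.76 and 3.84 ± 2.17 CPM in the budesonide and combined groups. They were 13.9 ± 4.95 in control and 21.1 ± 2.96 in proline libraries. Of the 4 tested 1, Thy1, fell in the combined group against proline and against control, where 4.27% and 3.83% of all tested genes did. Utf1, a stem cell marker, was 364 ± 64.4 CPM with budesonide and 374 ± 32.5 in the combined group, against 533 ± 38.8 in control and 675 ± 59.1 in proline libraries. It was called lower with budesonide, for combined against proline and for combined against control. The share of counts from Rn18s, a ribosomal RNA, was 4.36% ± 2.22 with budesonide and 4.51% ± 1.39 in the combined group. It was 2.55% ± 0.302 in control and 2.88% ± 0.519 in proline libraries. The part of these measures in the values of Hspd1 was not tested. Proline alone gave -0.10 (adjusted p = 0.737), and adding proline to budesonide gave -0.01 with a 95% interval from -0.24 to 0.22.

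Hspe1 followed with smaller changes. It was 973, 927 and 1079 CPM in control libraries, 938, 999 and 996 CPM in proline libraries, 752, 813 and 685 CPM in budesonide libraries and 743, 688 and 849 CPM in combined libraries. Here too the 6 libraries with budesonide lay below the 6 without. Hspe1 fell with budesonide by 0.41 ± 0.10 (log2, adjusted p = 0.0184), with budesonide added to proline by 0.36 ± 0.10 (0.0247) and in the combined group against control by 0.39 ± 0.10 (0.0230). The first call ended without control 3 (0.0728), budesonide 1 (0.0515), budesonide 3 (0.0925) or control 3 and budesonide 3 together (0.218, log2 -0.27). It was also lost without scaling beyond the library total (0.0868) and with the libraries of the 2 groups alone (0.0530). The second ended without proline 2 (0.0737), proline 3 (0.0785) or combined library 1 (0.104) or 2 (0.155), and the third without control 3 (0.0929), combined library 1 (0.104) or 2 (0.156), or control 3 and budesonide 3 together (0.0577). All 3 ended with a correction for transcript length and GC content (0.222, 0.144 and 0.250), and the Hspe1 transcript has 964 bases. The ratio of Hspe1 to Hspd1 counts was 1.699 ± 0.140 in control, 1.81 ± 0.253 in proline, 1.95 ± 0.0841 in budesonide and 1.98 ± 0.106 in combined libraries. Budesonide and combined libraries lay above the control libraries in this ratio (exact two-sided permutation p = 0.1 for each, adjusted 0.182), and the proline range overlapped both.

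Hspa9, the mitochondrial Hsp70 known as mortalin, was not called by edgeR in any comparison of the 12 libraries. It was 722, 706 and 609 CPM in control libraries, 615, 621 and 587 CPM in proline libraries, 627, 726 and 719 CPM in budesonide libraries and 584, 544 and 521 CPM in combined libraries. The combined libraries were the 3 lowest of the 12, with log2 changes of -0.30 against control (adjusted p = 0.0756) and -0.33 against budesonide (0.121). DESeq2 called both differences (0.0170 and 0.0214), and edgeR called the first without control 3 (-0.38, 0.0358) and without control 3 and budesonide 3 (-0.38, 0.0242). Hspd1 counts were 0.866 ± 0.0850 of Hspa9 counts in control libraries and 0.560 ± 0.0738 in budesonide libraries, where all 3 values lay below the control range (exact two-sided permutation p = 0.1).

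Hspa5, or BiP, the main Hsp70 of the endoplasmic reticulum, had its highest mean in the combined group and was not called by edgeR in any comparison of the 12 libraries. It was 766, 833 and 773 CPM in control libraries, 856, 711 and 941 CPM in proline libraries, 840.4, 938 and 945 CPM in budesonide libraries and 1044, 1025 and 934 CPM in combined libraries. All combined and all budesonide libraries lay above the control range. The log2 change was 0.34 ± 0.11 for combined against control (adjusted p = 0.0519), 0.26 for combined against proline (0.129) and 0.20 for budesonide against control (0.307). The first was called by DESeq2 (0.0149), by limma-voom (0.0304), without scaling beyond the library total (0.0412) and with the 6 libraries of the 2 groups alone (0.0389). Within libraries, Hspa5 counts were 1.82 ± 0.0545 times those of Hspa9 in combined libraries, above the highest value of any other library (1.60), and 1.17 ± 0.104 times in control libraries. Each comparison with the combined group gave an exact two-sided permutation p of 0.1 for this ratio.

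The Hspa5 promoter is shown because of the 6 members with a RefSeq promoter entry it alone holds the endoplasmic reticulum stress element, the site through which unfolded protein is known to act on it. It is printed from RefSeq, chr2:34771840-34772139, GRCm38.p6, plus strand, with the element in capitals.
Hspa5 promoter: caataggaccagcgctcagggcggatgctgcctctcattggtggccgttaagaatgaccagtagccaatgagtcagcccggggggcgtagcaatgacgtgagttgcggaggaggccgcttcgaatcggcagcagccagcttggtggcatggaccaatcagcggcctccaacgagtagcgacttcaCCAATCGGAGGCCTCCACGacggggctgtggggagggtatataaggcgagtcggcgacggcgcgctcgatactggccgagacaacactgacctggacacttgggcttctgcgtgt
The element begins 65 bases before the start and occurs in 0.119% of RefSeq promoters of this length. No pair of heat shock units was found in this window.

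Hspb1, the small heat shock protein HSP25 of mouse, was the member with the clearest opposite changes. It was 499, 599 and 573 CPM in control libraries and 359, 267 and 334 CPM in proline libraries, so that all proline libraries lay below all controls. It was 564, 681 and 619 CPM in budesonide libraries and 611, 589.5 and 569 CPM in combined libraries, which lay above all proline libraries and overlapped the control range. Hspb1 fell with proline (log2 -0.80 ± 0.12, adjusted p = 8.06e-05) and rose when budesonide was added to proline (0.88 ± 0.12, adjusted p = 2.50e-05). Both calls held under every alternative setting tried. In the combined group its difference from control was 0.08 ± 0.12, with a 95% interval from -0.16 to 0.32, and budesonide alone gave 0.16 (adjusted p = 0.515). The interaction was 0.72 ± 0.17 on the log2 scale (adjusted p = 0.0491), and this call ended in 15 of 21 alternatives, which gave adjusted p-values from 0.00288 to 0.242. It ended without control 2 (0.173) or 3 (0.0546), proline 2 (0.121) or 3 (0.0846), budesonide 1 (0.138) or 3 (0.0891), or combined library 1 (0.163), 2 (0.111) or 3 (0.0795).

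Other measures also differed between proline and control libraries, as Hspb1 and Hsp90aa1 did. The summed stem cell markers were 2926 ± 265 CPM in control, 2329 ± 97.2 in proline, 2725 ± 174 in budesonide and 2960 ± 52.7 in combined libraries. With proline 4 of the 8 were called lower (Esrrb, Nanog, Tdh and Zfp42), where 4.71% of all tested genes were. Positive changes with proline were seen in 2 of the 8 and were not called. Utf1 was 1 of these, at 675 CPM in mean against 533 in control. The share of counts from mitochondrial genes was 7.58% ± 0.243 in control, 5.62% ± 0.156 in proline, 7.72% ± 0.280 in budesonide and 7.95% ± 0.0707 in combined libraries. The summed endoderm markers were 9.72 to 13.6 CPM in control and 23.8 to 26.8 CPM in proline libraries, without overlap. They were 5.40 to 14.4 CPM in budesonide libraries and 15.2 to 22.9 CPM in combined libraries, which lay above the control range. Of these markers 1 of the 6 tested was called higher with proline, Sox17, where 3.17% of all tested genes were. Sox17 was at 0.0514 CPM in mean in control and 2.30 CPM in proline libraries. It was also called higher with budesonide, at a mean of 2.74 CPM, where 2.51% of all tested genes were. The part of these measures in the values of Hspb1 and Hsp90aa1 was not tested. The Hspb1 promoter (RefSeq, chr5:135887669-135887968, GRCm38.p6, plus strand) is shown because, like that of Hspe1, it holds pairs of heat shock units.
Hspb1 promoter: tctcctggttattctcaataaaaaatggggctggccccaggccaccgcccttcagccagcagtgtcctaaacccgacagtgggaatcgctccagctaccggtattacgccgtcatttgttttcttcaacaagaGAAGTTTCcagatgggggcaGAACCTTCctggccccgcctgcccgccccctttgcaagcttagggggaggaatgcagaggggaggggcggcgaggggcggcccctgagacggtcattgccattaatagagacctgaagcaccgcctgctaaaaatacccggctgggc
Its 2 separate pairs, in capitals, begin 117 and 97 bases before the start, with no run of 3 units. Hsph1 also holds such pairs, and Dnajb1 holds none in either of its 2 RefSeq promoters. The part of these units in the levels of the genes was not tested. The pattern searched for as the site of the glucocorticoid receptor was found in only 16 of 32851 RefSeq promoters of this length (0.0487%). It was not found in the 9 promoter entries of the 6 members that have one. A pattern this rare would be missing from almost any 9 promoters, so its absence here is uninformative. Action of the receptor on these genes was not tested.

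Measured by the root mean square difference in centred log2 CPM over the 12 libraries, the tested genes most like Hspb1 among 13851 were Slc29a1 (0.111), Ttc3 (0.131) and Pgap1 (0.145). Slc29a1, a nucleoside transporter, had group means of 172 CPM in control, 101 in proline, 188 in budesonide and 197 in combined libraries. Those most like Hspd1 were Nolc1 (0.0822), Rpl7l1 (0.0972) and Hnrnpab (0.0977). Nolc1, a nucleolar phosphoprotein, had group means of 566, 553, 355 and 364 CPM in the same order. These likenesses are descriptions over libraries that share groups.

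The wider chaperone network was described with 104 other genes in 6 lists, of which 103 were found and 95 tested. With proline 4 of the 95 were called higher, where 3.17% of all tested genes were, and 3 lower, where 4.71% were. With budesonide 0 were higher (2.51% of all tested genes) and 9 lower (4%). With budesonide added to proline 5 were higher (5.83%) and 10 lower (4.27%). In the combined group against control 4 were higher (3.34%) and 5 lower (3.83%), and against budesonide 2 were higher (0.874%) and 0 lower (0.592%). None was called for the interaction by edgeR, where 8 had an unadjusted p under 0.05 and DESeq2 and limma-voom called 0 each.

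Partners of Hsp90 and Hsp70 were among the genes that fell with budesonide. Hspa4, an exchange factor of Hsp70 and a relative of Hsph1, was 1040 ± 51.3 CPM in control and 1089 ± 25.3 in proline libraries against 692 ± 15.5 in budesonide and 751 ± 35.9 in combined libraries (log2 with budesonide -0.59 ± 0.09, adjusted p = 0.000307). Dnajc2, a J-domain protein of the ribosome, fell with budesonide by 0.75 ± 0.12 on the log2 scale (adjusted p = 0.000411) and in the combined group against control by 0.53 ± 0.12 (0.00687), a call that ended without combined library 2 (0.0671). In the cytosolic Hsp70 and Hsp40 list of 23 tested genes, 2 fell with budesonide and 0 rose, with a list median of -0.04. Over all tested genes 4% fell and 2.51% rose there. Hspa2 was called lower for combined against proline (-1.73, adjusted p = 0.0492), at 3.51 ± 2.63 against 11.7 ± 4.20 CPM. Leaving out any library of those 2 groups except combined library 3 ended the Hspa2 call, as did a correction for transcript length and GC content. The call was also lost with limma-voom and without scaling beyond the library total.

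Of the 15 Hsp90 co-chaperones, Fkbp4, which binds the glucocorticoid receptor complex, was called higher with proline, at 1150.1 ± 77.9 against 852 ± 159 CPM in control libraries (log2 0.43 ± 0.11, adjusted p = 0.0166). This call ended without control 1 or 2 or proline 1 or 3, with adjusted p-values up to 0.142 over the alternatives. It also ended with a correction for transcript length and GC content. Ppid, the cyclophilin of the same complex, was 313 ± 37.5 CPM in control, 296 ± 27.3 in proline, 213 ± 3.18 in budesonide and 173 ± 25.4 in combined libraries. Its log2 change was -0.56 with budesonide (adjusted p = 0.00877, and 0.0752 without control 3 and budesonide 3), -0.77 ± 0.13 for combined against proline (0.000271) and -0.86 ± 0.13 for combined against control (0.000170). Fkbp5, a known target of glucocorticoids in many tissues, was at 99.7 ± 5.66, 85.0 ± 15.4, 85.9 ± 16.2 and 99.4 ± 4.14 CPM in control, proline, budesonide and combined libraries and was not called in any of the 6 comparisons.

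All 14 genes of the cytosolic chaperonin TRiC and of prefoldin, which fold actin and tubulin, were tested. With budesonide 3 were called lower (Cct6a, Pfdn1 and Pfdn6), where 4% of all tested genes were. A negative change was seen in 13 of 14, and the median was -0.22, where the median of all tested genes was 0.01. For combined against proline 4 were lower (Cct2, Cct5, Cct6a and Tcp1), where 4.27% of all tested genes were. Here 14 of 14 were negative and the median was -0.27, where that of all genes was 0.02. Cct2 was 552 ± 55.8 CPM in control, 809 ± 75.8 in proline, 475 ± 50.1 in budesonide and 580 ± 40.6 in combined libraries, and rose with proline by 0.55 ± 0.11 on the log2 scale (adjusted p = 0.00240). Pfdn6 fell with budesonide by 0.68 (adjusted p = 0.00833). That call ended without control 3 and budesonide 3 together and with a correction for transcript length and GC content. In the combined group against control 1 of the 14 was lower, Cct6a, where 3.83% of all tested genes were.

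Among 25 endoplasmic reticulum chaperones and unfolded protein response genes, 5 rose and 1 fell for combined against proline, with a median of 0.37. Over all tested genes 5.83% rose and 4.27% fell there. For combined against control 4 rose and 0 fell, with a median of 0.31, where 3.34% of all tested genes rose and 3.83% fell. Pdia6, a disulfide isomerase, was 348 ± 7.69 CPM in control, 412 ± 5.22 in proline, 358 ± 18.7 in budesonide and 535 ± 23.6 in combined libraries, with a change of 0.62 ± 0.10 against control (adjusted p = 0.000349) and 0.58 ± 0.10 against budesonide (0.00291). P4hb, another isomerase, was 355 ± 7.06 CPM in control, 461 ± 21.99 in proline, 271 ± 30.4 in budesonide and 439 ± 63.0 in combined libraries. It was called higher with proline (0.38 ± 0.12, adjusted p = 0.0493) and lower with budesonide (-0.39 ± 0.12, 0.0481). Both of these calls lay at the edge of the threshold, and their values under the alternative settings are not given here. P4hb was higher in the combined group than with budesonide (0.70 ± 0.12, 0.00249), while combined against proline gave -0.07 (0.797). Canx, a chaperone of glycoproteins, rose in the combined group against control by 0.54 (adjusted p = 0.00142). The Canx call ended with a correction for transcript length and GC content (0.0585). Hsp90b1, the Hsp90 of this compartment, was 582, 542 and 318 CPM in control and 663, 712 and 593 CPM in combined libraries and did not pass. Ddit3, which encodes the stress factor CHOP, was low throughout, at 7.68 ± 0.892 CPM in control, 2.06 ± 1.11 in proline and 7.83 ± 0.695 in combined libraries. Its call with proline (log2 -1.91 ± 0.55, adjusted p = 0.0340) ended without any 1 of the control libraries or proline 1 or 2. It also ended without control 3 and budesonide 3 together and with a correction for transcript length and GC content. The same held without the low-count filter and with the libraries of the 2 groups alone. The Ddit3 call for combined against proline (1.93, adjusted p = 0.0253) ended without any 1 of proline 1 or 2 or the combined libraries, and without the low-count filter.

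The same list held further calls. Serp1, a membrane protein that answers stress in this compartment, rose with proline by 0.62 ± 0.13 (adjusted p = 0.00268). Dnajb11, a J-domain partner of BiP, fell with budesonide by 0.67 (adjusted p = 0.0112). The Dnajb11 call ended without control 2 or budesonide 1 and with the libraries of the 2 groups alone. For combined against proline, Hyou1 (0.82, adjusted p = 0.0281) and Sel1l (0.59, adjusted p = 0.0247) rose, each in a call that ended without any 1 of 4 libraries, and so did Xbp1 for combined against control (0.81, adjusted p = 0.0415). The libraries were proline 1 and 3 and combined 2 and 3 for Hyou1, proline 1 and 2 and combined 1 and 3 for Sel1l, and control 2 and 3 and combined 1 and 2 for Xbp1. The Xbp1 call also ended without control 3 and budesonide 3 together and with limma-voom. Those of Hyou1 and Sel1l also ended with a correction for transcript length and GC content.

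Of the mitochondrial chaperones and proteases other than the members, 15 were tested. With proline 2 of the 15 fell, Atf5 and Yme1l1, where 4.71% of all tested genes did. Atf5, a transcription factor of the mitochondrial stress response, went from 29.5 ± 7.72 to 9.36 ± 3.7997 CPM (log2 -1.63 ± 0.31, adjusted p = 0.00148). Yme1l1, an inner membrane protease, changed by -0.57 (adjusted p = 0.00621). The Yme1l1 call ended without control 1 and with a correction for transcript length and GC content, with adjusted p-values up to 0.328 over the alternatives. Clpp, a matrix protease, was called lower with budesonide (-0.49, adjusted p = 0.0309) and for combined against proline (-0.54, adjusted p = 0.0113). The first of these calls ended without control 1 or 3, budesonide 1 or 3, or control 3 and budesonide 3 together. It was lost as well without scaling beyond the library total and with the libraries of the 2 groups alone. It also ended with a correction for transcript length and GC content. The second call ended without proline 3 or combined library 1. Hscb, a J-domain protein for iron-sulfur clusters, was called lower in the combined group against control (-1.40, adjusted p = 0.0399). The Hscb call ended without control 1 or 2 or combined library 1 or 3, with limma-voom, and with a correction for transcript length and GC content. Trap1, the mitochondrial Hsp90, was at 82.7 to 99.9 CPM in mean and was not called. Of 8 other small heat shock proteins 3 had enough counts to be tested and 0 were called.

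**Figure D4:**
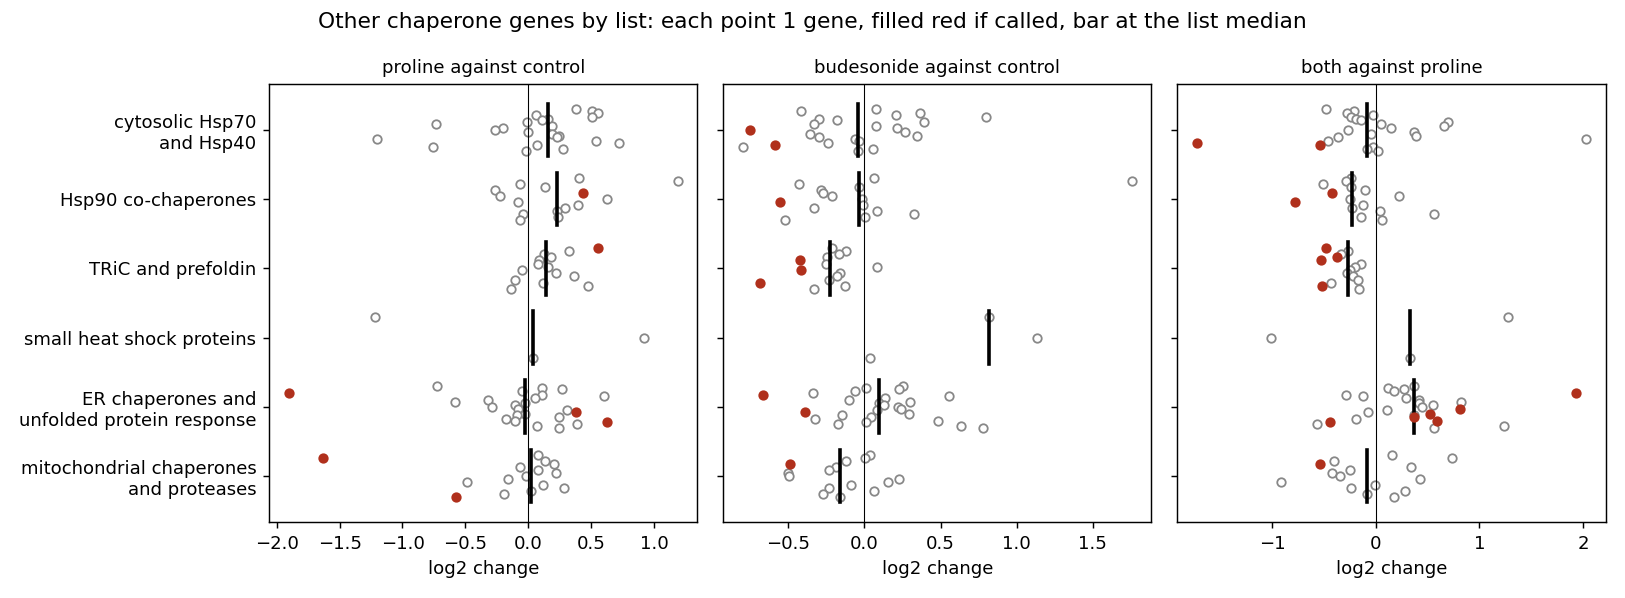
Log2 change of each tested gene of the 6 lists of other chaperones in 3 comparisons, with 1 point per gene, filled red where called, and a bar at the list's median. The TRiC and prefoldin genes lie mostly left of 0 with budesonide and all left of 0 for combined against proline, and the endoplasmic reticulum list has its median at 0.37 in the latter.

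Copies of these genes could affect the counts. How reads that match several places were counted, and whether strand was used, is not given in the sources used here, so the counts of members with many near-identical copies, such as Hspa8, Hspd1, Hspe1 and the 2 Hsp90 genes, are uncertain to that extent.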

How the data were processed

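RNA from 12 libraries was made into 3'-end libraries with the QuantSeq kit, per the labels' protocols. Per the submitters' processing notes, cutadapt 2.5, STAR 2.7.5c, featureCounts 2.0 and DESeq2 were used with build GRCm39. The deposited raw counts per gene symbol were the values analysed. A deposited signal table of 19196 symbols equals, in 99.94% of values to within 0.01, those counts divided by a size factor per library, and was not tested. Sample groups came from the labels.

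Counts were fitted over all 12 libraries with edgeR 4.0.16 in R 4.3.3 (quasi-likelihood F-test, TMM scaling, filterByExpr with a minimum count of 10 and a minimum total of 15, prior count 0.125), with Benjamini-Hochberg adjustment over 13852 genes. The standard error is the size of the log2 change divided by the square root of F. Depth was 5299432 to 15921283 counts, and the median biological coefficient of variation was 0.293. Replicates differed by more than sampling noise (chi-square per degree of freedom of 5.485 or higher). Alternatives were DESeq2 1.42.0, limma-voom (limma 3.58.1), other scalings, no filter, smaller sample sets, libraries left out, a replicate block, and offsets for transcript length and GC content (GRCm38 transcripts, available for 97.7% of tested genes). Ratios were tested by exact permutation.

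The members and gene lists were chosen with earlier results of these data known. All 10 members are named. Of the other chaperones, up to 6 called genes per comparison are named, those with the largest change whose groups do not overlap, along with the 3 genes most like each of the 2 members with the lowest adjusted p. Genes given beside these (Hspa1a, Hspa1b, Hsf1, Fkbp5, Hsp90b1, Trap1 and the called genes of lists with few calls) were named for their role after their values were seen. Promoters are RefSeq sequences of GRCm38.p6, matched by symbol for 6 of 10 members.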

Additional observations from a re-analysis of the deposited data

Results flagged for a closer look

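The effect of proline on Hspb1 differed between cells with and without budesonide by 0.724 on the log2 scale, from -0.80 without budesonide to -0.07 with it. The interaction term of the edgeR fit singled this out, with an adjusted p of 0.0491. All 3 proline libraries lay below the control range, while the ranges of the combined and budesonide libraries overlapped. Over the alternatives the adjusted p ran from 0.00288 to 0.242, so the call rests on the settings chosen.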

How the results depend on the processing

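Over the 60 member results, 876 of 1000 alternative values kept their direction and their side of the threshold, 60 lost the call, 17 gained one and 47 changed sign. All changes of sign were in results that were not called. With proline 2 members were called under all 16 alternatives. With budesonide the count of 4 became 2 without scaling beyond the library total, with the libraries of the 2 groups alone and with length and GC offsets, and 2 to 4 when 1 library was left out. For combined against proline the count of 4 became 2 with those offsets, 5 without the low-count filter and with the libraries of the 2 groups alone (Hspa8 gained in both), and 2 to 3 with 1 library left out. For combined against control the count of 3 became 5 with DESeq2 and with limma-voom, 1 with the offsets, and 1 to 3 with 1 library left out. For combined against budesonide the count of 0 became 1 with DESeq2, without the low-count filter, and without control 3 and budesonide 3. The interaction count of 1 became 0 with DESeq2-style size factors in edgeR, without scaling, with the replicate block and with the offsets, and 0 to 1 with 1 library left out. Over all tested genes, the counts ranged from 674 to 1413 with proline (1091 as reported), 493 to 1267 with budesonide (902), 836 to 1913 for combined against proline (1399), 535 to 1373 for combined against control (993), 80 to 419 for combined against budesonide (203) and 29 to 145 for the interaction (65). The causes were not tested.

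Same-numbered libraries did not deviate together (15 correlations, of which 0 were over 0.1, and 3 of 12 libraries closest to their own number), so no pairing by number was seen. This check cannot exclude that same-numbered libraries were cultured or prepared together. With the replicate block 2, 4, 4, 2, 0 and 0 members were called in the 6 comparisons in the order proline, budesonide, combined against proline, combined against control, combined against budesonide and interaction. The calls lost were Hsp90aa1 for combined against control (adjusted p = 0.0576) and the Hspb1 interaction (0.107), and the count of all genes for combined against budesonide became 128. The block with length and GC offsets gave 2, 2, 2, 1, 0 and 0.

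Signs changed as follows, in log2. With length and GC offsets, Hspe1 with proline became 0.045 (0.056 with the block), Hspa9 with budesonide -0.0067 (-0.0083), Hspb1 for combined against control -0.0027 (-0.0028), and the interactions of Hsph1 0.035 (0.0354) and Hspe1 -0.028 (-0.048). Without scaling, Dnajb1 with budesonide became 0.055, Hspe1 for combined against budesonide -0.056, and the interactions of Hsp90ab1 -0.046, Hspa5 -0.014 and Hspe1 -0.038. Without control 3 and budesonide 3, Hspa8 with proline became -0.29, Hspe1 with proline 0.035, Hspa9 with budesonide -0.071, Hspe1 for combined against budesonide -0.054, and the interactions of Hsph1 0.024, Hspd1 -0.0013 and Hspe1 -0.089. With limma-voom, Hspd1 for combined against budesonide became 0.0030. Leaving out 1 library gave, with proline, -0.012 to 0.19 for Hspa5, -0.29 to 0.37 for Hspa8 and -0.066 to 0.039 for Hspe1. With budesonide it gave -0.14 to 0.082 for Dnajb1 and -0.0501 to 0.091 for Hspa9. For combined against budesonide it gave -0.14 to 0.0104 for Hspb1, -0.091 to 0.11 for Hspd1 and -0.068 to 0.094 for Hspe1. For the interaction it gave -0.014 to 0.076 for Hsp90ab1, -0.0457 to 0.15 for Hspa5, -0.0463 to 0.11 for Hspe1 and -0.11 to 0.057 for Hsph1.

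With 3 libraries a group, differences well under the intervals given with the results were not detectable. Dnajb1, with the fewest counts of the 10 (4810 over the 12 libraries), and Hspa8 were less precise.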
